A study of Mus musculus with 5 samples.

Results

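The cells described here were Car4 macrophages of the bleomycin-injured mouse lung, divided by how much of a lineage reporter they carried. A barcode, which stands for 1 droplet and in most cases 1 cell, counted as a Car4 macrophage when it held at least 2 UMIs of Car4 and at least 1 of Cd68, and none of Cd3e, Cd79a or Csf3r. A UMI is 1 captured mRNA molecule. Car4 encodes a membrane carbonic anhydrase of alveolar macrophages and Cd68 a lysosomal glycoprotein of macrophages, whereas Cd3e, Cd79a and Csf3r mark T cells, B cells and granulocytes. In the libraries of days 7, 14 and 28 after bleomycin, 3529 of 27530 barcodes that passed the filters met this rule, out of 44772 in the whole series. The cells were then selected on their RFP level, the added reporter feature, given in CPM, which are UMIs per 1000000 UMIs of the cell or of the summed cells. Reporter-high cells held RFP at 1000 CPM or more, and 401 cells did so. Reporter-low cells held it at 300 CPM or less, which gave 2797 cells, so that 3198 cells stood on a side. The other 331 cells lay between the cuts and were called reporter-middle.

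All 5 libraries came from lungs of adult Ms4a3-CreER;R26-tdT mice on a mixed C57BL6/129 background, aged from 7 weeks, which carried both alleles in every group. The groups were PBS-treated lungs (sham) and lungs taken 3, 7, 14 and 28 days after bleomycin, a drug that injures the epithelium and leaves fibrosis, was instilled into the trachea, with a single library for each. Tamoxifen was given by gavage, and the number of animals behind each library is not given in the sources used here. Lung immune cells were digested, depleted of red cells by lysis and captured as 3' single-cell libraries.

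In this mouse, tamoxifen activates a Cre recombinase driven from Ms4a3, a gene used by granulocyte-monocyte progenitors, and Cre switches on tdTomato permanently in a cell and its descendants. Neutrophils and monocyte-derived macrophages can thus carry the mark, while alveolar macrophages seeded before birth, which renew themselves in the airspace, should largely lack it. After injury, monocytes enter the alveoli and can take on an alveolar macrophage program that includes lipid uptake, surfactant clearance and the surface proteins SiglecF and MARCO. A low RFP value does not by itself show a resident origin, since recombination need not reach every progenitor and a pulse of tamoxifen ages as blood cells are replaced. RFP, Car4, Cd68, Cd3e, Cd79a and Csf3r chose the cells, so their values are given as a description and were left out of every test.

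The libraries held 89769386 to 167506186 UMIs over 8971 to 12688 barcodes. The day 7 library held exactly 10000 barcodes and no barcode under 4624 UMIs, whereas the lowest barcode of each other library had 500 to 502. Pairs of libraries shared 22 to 41 cell barcodes. Ddx3y, a Y-linked gene, stood at 98.8 to 145 CPM on both sides of the day 7, 14 and 28 libraries, and Xist, which is expressed from the inactive X, at 0 to 0.449.

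The sides differed in RFP by choice, since RFP cut them, and their ranges of RFP molecules per cell overlapped at days 14 and 28. At day 14 the 221 reporter-high cells had a median of 57 RFP UMIs each, with 6 to 159 in a cell. The 598 reporter-low cells had a median of 3, with 0 to 14. At day 28 the 169 reporter-high cells had a median of 35 RFP UMIs, with 8 to 120. The 1021 reporter-low cells had a median of 1, with 0 to 15. The 11 reporter-high cells of day 7 had a median of 27, against 1 in 1178 reporter-low cells. RFP was not seen at all in 63 of the reporter-low cells at day 14 and in 337 at day 28, so most reporter-low cells held a few RFP molecules. Cells did not leave a gap at the cuts: at day 14 the lowest reporter-high cell stood at 1004.63 CPM and the highest reporter-middle cell at 992.884, and at day 28 the corresponding cells stood at 1003.2 and 998.694. At the lower cut the lowest reporter-middle and highest reporter-low cells stood at 301.134 and 299.828 at day 14, and at 300.102 and 296.93 at day 28.

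**Figure D1:**
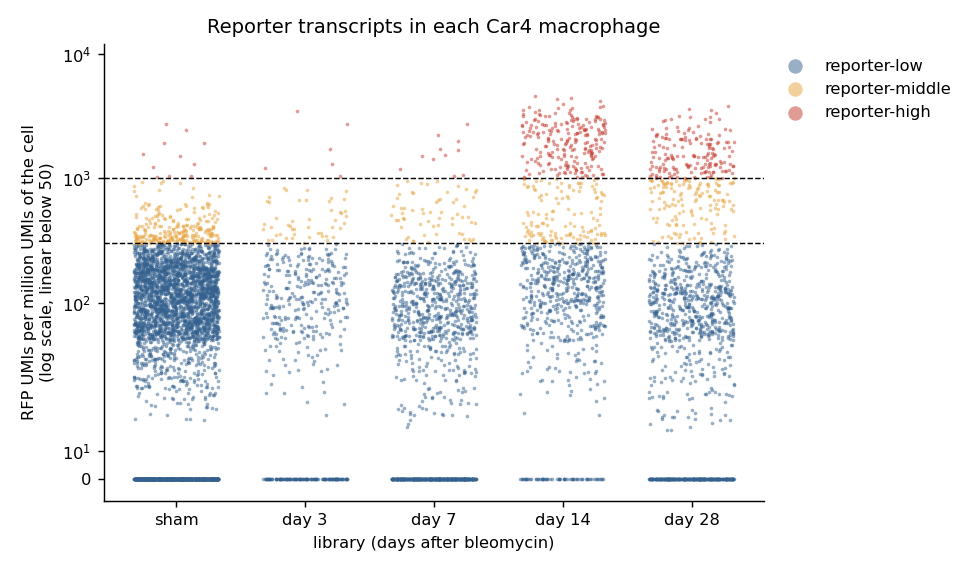
Each point is 1 Car4 macrophage, placed by its library on the x axis and by its RFP level in CPM on the y axis (log scale, linear below 50), with the cuts at 300 and 1000 as dashed lines. Cells past the upper cut are few in the sham, day 3 and day 7 libraries (11, 6 and 11 cells) and many at days 14 and 28 (221 and 169 cells), and the cells grade across both cuts without a gap.

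Reporter-high cells were rare among Car4 macrophages up to day 7 and common after it. They were 0.276% of 3987 Car4 macrophages in the sham library (exact 95% binomial interval 0.138 to 0.493), 1.20% of 500 at day 3 (0.442 to 2.59) and 0.880% of 1250 at day 7 (0.440 to 1.57). The share was 23.4% of 945 at day 14 (20.7 to 26.2) and 12.7% of 1334 at day 28 (10.9 to 14.6). These intervals cover counting error only, and with 1 library a time point no test between time points was possible. With predicted doublets left out, the shares at days 14 and 28 were 21.6% and 11.8%. With the upper cut moved to 2000 CPM and at least 3 RFP UMIs, they were 11.9% and 3.45%.

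The same cut was applied to lymphocytes, which should not carry the mark, and to the myeloid cells that should. B cells passed it at 0.832% to 3.19% and T cells at 0.367% to 2.92% over the 5 libraries, at median depths of 3201 to 8419 UMIs against 15093 to 24071 in Car4 macrophages. The sham, day 3 and day 7 shares of Car4 macrophages lay within or below the range of the lymphocytes, so no labelling above background is read from them, and the day 14 and day 28 shares lay above it. Neutrophils passed the cut at 73.4% in the sham library and 75.2% at day 3, and at 15.6%, 16.7% and 5.80% at days 7, 14 and 28. Their median depth was 13968 UMIs at day 7, where no barcode lay under 4624. It was 2370 to 3565 UMIs in the other libraries, so the day 7 share comes from deeper cells. Monocytes were taken as cells with Ly6c2, Ccr2 and Plac8 and without Car4. They passed it at 43.5% in the sham library (20 of 46) and at 37.9% at day 3 (251 of 663), but at day 7 only 4 of 248 did. At days 14 and 28 only 18 and 8 monocytes were found, of which 2 and 0 passed, too few to rank. Macrophages with C1qa and no Car4 UMI, hereafter Car4-negative macrophages, passed it at 34.6%, 14.2%, 50.2% and 18.9% at days 3, 7, 14 and 28. Neutrophils thus carried the reporter most often in the sham and day 3 libraries, as did monocytes among the libraries up to day 7. Car4 macrophages carried it most often at day 14.

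**Figure D2:**
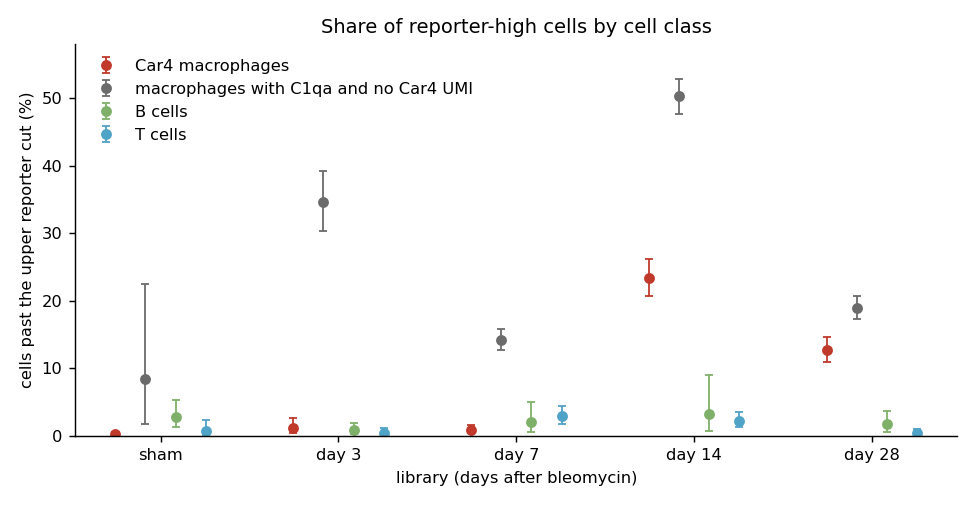
Percentage of cells past the upper reporter cut (y axis) in each library (x axis) for 4 classes of cells, with exact 95% binomial intervals as bars. Car4 macrophages stay at 1.20% or less up to day 7 and stand at 23.4% and 12.7% at days 14 and 28, where B and T cells stay at 3.19% or less.

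The genes that chose the cells differed little between the sides apart from the reporter itself. Summed over cells, RFP stood at 1979 CPM in reporter-high and 127 in reporter-low cells at day 14, and at 1599 and 68.2 at day 28. Car4 stood at 483 and 495 at day 14 and at 565 and 591 at day 28, and Cd68 at 616 and 598, and at 649 and 642. Reporter-high cells were somewhat deeper, with median totals of 28749 against 23500.5 UMIs at day 14 and 19912 against 18759 at day 28. The alveolar label was checked with 34 alveolar macrophage genes that the choice did not use, 1 of which was at 0 UMIs on each side. They summed to 22570 CPM in reporter-high and 32701 in reporter-low cells at day 14 and to 33622 and 34231 at day 28. Both sides thus held transcripts of this list, and several of its genes were lower in reporter-high cells as described further on. Chil3, a chitinase-like secreted protein of alveolar macrophages, stood at 5343 and 11528 CPM at day 14 in reporter-high and reporter-low cells and at 10223 and 10501 at day 28. Plet1, a surface protein of alveolar macrophages, stood at 1220 and 1653, and at 1195 and 1351. Abundant members weigh most in the sums, and some are not confined to alveolar macrophages. In Car4-negative macrophages past the upper cut, Chil3, the lipase Lpl and the tetraspanin Cd9 stood at 806, 2433 and 2298 at day 14. At day 28 they stood at 3790, 3441 and 3498, so the sums alone do not show an alveolar program.

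Which genes differ between reporter-high and reporter-low Car4 macrophages of the same library was asked by summing UMIs over the cells of each side in each library. Only the day 14 and day 28 libraries had 20 or more cells on each side, so they served as the 2 replicates with the library as a block, 2009 cells in all. These replicates differ in time as well as in animals, so the test was of a side difference shared by both times. Equal direction in each library was not itself required, although every gene that passed had it. Of 11173 genes tested, 16 rose and 41 fell in reporter-high cells at an adjusted p under 0.05 (edgeR quasi-likelihood test with Benjamini-Hochberg adjustment), which is 0.143% and 0.367% of the genes and 0.51% in all. An unadjusted p under 0.05 was reached by 1299 genes. DESeq2 called 58 higher and 91 lower, among them 56 of the 57 genes, and edgeR without TMM factors called 97 and 156. The design left 1 residual degree of freedom, and without the library block 0 genes passed in edgeR and 467 had an unadjusted p under 0.05.

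Differences were larger at day 14 than at day 28. Among 1524 genes that reached 100 CPM on a side of both libraries, 16 were higher by 2-fold or more and 17 lower by as much at day 14 (1.05% and 1.12%), and 4 and 8 at day 28 (0.262% and 0.525%). The standard deviation of the log2 ratios over these genes was 0.35 at day 14 and 0.21 at day 28. The ratios of both libraries went together across genes with Pearson's r of 0.670 and Spearman's rho of 0.503, a description over genes that are not independent. No gene was 2-fold different in opposite directions, and 4 were 2-fold higher and 7 2-fold lower in both. The 7 were Marco, Krt79, Ccnd2, Cidec, Siglecf, Scgb1a1 and Cd2, and the 4 were Spp1, Ifi27l2a, Cd93 and S100a4, of which Cd93 and S100a4 did not pass the test.

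**Figure D3:**
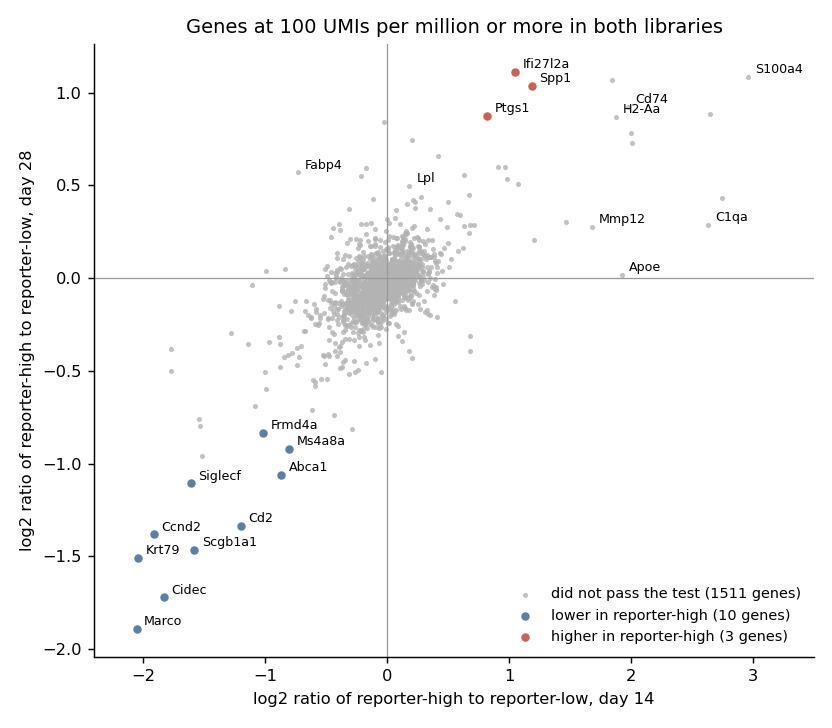
Each point is 1 of 1524 genes, with the log2 ratio of reporter-high to reporter-low cells at day 14 on the x axis and at day 28 on the y axis, and the genes past the test in colour. The genes past the test lie along the diagonal from Marco (-2.05 and -1.89) to Spp1 (1.19 and 1.04), whereas Apoe and C1qa lie far to the right at day 14 and near 0 at day 28.

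Reporter-high cells had less of a set of alveolar macrophage genes. Of 33 alveolar identity genes tested, 5 fell and none rose, and the median log2 fold change of the list was -0.20 beside -0.01 over all genes tested. The list had 25 members lower and 3 higher in both libraries, 75.8% and 9.09%, beside 35.8% and 23.7% of all genes. Marco (ENSMUSG00000026390, GRCm38 chr1:120474538-120505024, minus strand) encodes a scavenger receptor that binds inhaled particles and bacteria. It stood at 84.2 and 77.6 CPM in reporter-high cells at days 14 and 28, against 349 and 288 in reporter-low cells. The sides did not overlap, as for 17% of all genes tested with reporter-high cells below, and Marco fell by 1.95 on the log2 scale (SE 0.10, edgeR adjusted p = 0.0113), a level 3.86-fold higher in reporter-low cells. Siglecf encodes the sialic acid binding receptor by which alveolar macrophages are sorted. It stood at 48.7 and 62.2 in reporter-high against 148 and 134 in reporter-low cells, again without overlap, and fell by 1.34 (SE 0.15, edgeR adjusted p = 0.0435).

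Krt79, a keratin transcript typical of mature alveolar macrophages, stood at 94.3 and 112 CPM in reporter-high against 387 and 318 in reporter-low cells. It fell by 1.75 on the log2 scale (SE 0.15, edgeR adjusted p = 0.0335). The rest of the list did not pass, apart from Cidec and Fabp1 described with the lipid genes. Pparg, the nuclear receptor that installs alveolar macrophage identity, stood at 119 and 89.4 in reporter-high and at 126 and 93.7 in reporter-low cells, with a log2 fold change of -0.06 (SE 0.09, edgeR adjusted p = 0.85). Itgax, the CD11c integrin chain, stood at 477 and 593 against 413 and 491, and Ear2, an eosinophil-associated ribonuclease, at 707 and 1389 against 826 and 1228, neither past the test. Cd9, a tetraspanin, stood at 3386 and 4430 against 3892 and 4567. Chil3, lower at day 14 and close to level at day 28 as given above, did not pass (log2 fold change -0.55, SE 0.25, edgeR adjusted p = 0.49).

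When predicted doublets were left out, 11 of the 33 alveolar identity genes fell and none rose, in a fit that called 1.97% of all genes lower and 1.63% higher. Predicted doublets were 29 of the 221 reporter-high and 23 of the 598 reporter-low cells at day 14, and 31 of 169 and 90 of 1021 at day 28. Cells without a Siglecf UMI made up part of both sides: at day 14, 120 of 221 reporter-high and 533 of 598 reporter-low cells held at least 1, and at day 28, 90 of 169 and 827 of 1021 did. When Siglecf was required on both sides, 9 of 32 alveolar identity genes fell and 1 rose, beside 1.53% and 1.63% of all genes, a setting chosen after the data were seen.

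Genes of fatty acid handling were among those that fell. Of 30 genes of fatty acid uptake, storage and efflux tested, 5 fell and none rose, beside 0.367% and 0.143% of all genes, with a median of -0.18. The list had 20 members lower and 3 higher in both libraries (66.7% and 10%). Cidec (ENSMUSG00000030278, GRCm38 chr6:113424634-113435760, minus strand) encodes a lipid droplet protein that enlarges droplets. It stood at 40.9 and 61.9 CPM in reporter-high against 145 and 204 in reporter-low cells. The sides did not overlap, as for 17% of all genes tested with reporter-high cells below. Cidec fell by 1.75 on the log2 scale (SE 0.10, edgeR adjusted p = 0.0120). Fabp1, a cytosolic fatty acid binding protein, stood at 35.1 and 22.7 against 94.2 and 75.1 and fell by 1.53 (SE 0.11, edgeR adjusted p = 0.0234). Cidec and Fabp1 were members of both the alveolar and the fatty acid list.

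Pdk4, the kinase that restrains pyruvate oxidation, stood at 1.78 and 7.84 CPM in reporter-high against 7.26 and 47.3 in reporter-low cells and fell by 2.39 on the log2 scale (SE 0.20, edgeR adjusted p = 0.0335). Mylip, which targets the LDL receptor for degradation, stood at 14.2 and 28.7 against 36.7 and 61.0 and fell by 1.20. Abca1, the pump that loads cholesterol onto apolipoproteins, stood at 56.6 and 65.6 against 103 and 137 and fell by 0.94. Both sides of these 3 genes were ordered alike at each time, although reporter-low Pdk4 at day 14 lay below reporter-high Pdk4 at day 28. Lpl, the lipoprotein lipase, stood at 2999 and 4159 in reporter-high against 2643 and 2945 in reporter-low cells and did not pass (0.36, SE 0.10, edgeR adjusted p = 0.25). Fabp4, a fatty acid carrier of macrophages and fat cells, stood at 184 against 306 at day 14 and, the other way round, at 876 against 590 at day 28.

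Scd1, the desaturase that makes monounsaturated fatty acids, stood at 19.8 and 46.5 CPM in reporter-high against 50.4 and 175 in reporter-low cells and fell by 1.62 on the log2 scale (SE 0.15, edgeR adjusted p = 0.0335). It was the only one of 28 genes of cholesterol and fatty acid synthesis to pass. The sterol enzyme Cyp51 went opposite ways in the libraries, at 157 against 177 at day 14 and 140 against 92.5 at day 28. Acaa1b, a peroxisomal thiolase, stood at 19.7 and 50.2 against 67.2 and 124 and fell by 1.49 (SE 0.14, edgeR adjusted p = 0.0374). Among the 41 genes that fell were also Acot1, an acyl-CoA thioesterase (log2 fold change -1.42), Ucp3, a mitochondrial carrier (-2.24), and Apoc1, an apolipoprotein (-3.02), which were chosen after their values were seen.

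Fabp1, Acaa1b, Pdk4, Cidec and Ucp3 were picked from the genes that fell as textbook targets of the PPAR family. Other such targets, Lpl and Fabp4 among them, did not pass, and targets as a set were not counted. PPAR receptors bind, with RXR, a direct repeat known as DR1, searched here as 2 copies of AGGNCA with 1 base between them. This motif was therefore sought on both strands of the RefSeq promoters, 250 bases before to 50 after each start site. Of the 41 genes that fell, 31 were in the promoter table and 1, Fabp1, held a match, beside 125 of 32851 promoters in all (0.381%). The 30 bases around the match are shown with the motif in capitals, at chr6:71199804-71199833 of GRCm38.p6 on the plus strand, 67 bases before the start site and with the motif reading on the opposite strand.
Fabp1 promoter: acaatcacTGACCTATGGCCTatatctgag
A match to these letters is a description and shows no binding.

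Genes of scar-associated macrophages were higher in reporter-high cells, with Spp1 and Arg1 past the test. Of 30 such genes tested, 2 rose and none fell, beside 0.143% and 0.367% of all genes, with a median log2 fold change of 0.43. In both libraries 21 were higher and 4 lower, 70% and 13.3%, beside 23.7% and 35.8% of all genes. The authors' own fibrosis genes are part of this list, which was drawn up with these data known. Spp1 (ENSMUSG00000029304, GRCm38 chr5:104435118-104441050, plus strand) encodes osteopontin, a secreted phosphoprotein of fibrotic macrophages. It stood at 13801 and 15380 CPM in reporter-high against 6066 and 7492 in reporter-low cells. The sides did not overlap, and Spp1 rose 2.20-fold (log2 fold change 1.14, SE 0.06, edgeR adjusted p = 0.0113). Reporter-low cells of the sham library held Spp1 at 940, so both sides of the injured lungs lay above that level.

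Arg1 (ENSMUSG00000019987, GRCm38 chr10:24915221-24927484, minus strand) encodes arginase, which turns arginine into ornithine and marks alternatively activated macrophages. It stood at 82.8 and 31.4 CPM in reporter-high against 4.22 and 4.97 in reporter-low cells. It rose 11.5-fold (log2 fold change 3.52, SE 0.36, edgeR adjusted p = 0.0397), with log2 ratios of 4.29 at day 14 and 2.66 at day 28. Ecm1, a secreted matrix glycoprotein, stood at 66.9 and 87.5 against 22.2 and 42.0 and rose 2.54-fold (edgeR adjusted p = 0.0397). Fam20c, the Golgi kinase that phosphorylates secreted proteins including osteopontin, stood at 53.0 and 80.2 against 17.5 and 39.4 and rose 2.50-fold (edgeR adjusted p = 0.0440). Neither Spp1 nor these 3 genes overlapped between the sides, as 12.1% of all genes tested did not with reporter-high cells above.

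Other fibrosis genes were higher on both days without passing. Fn1, fibronectin, stood at 2917 and 2211 CPM in reporter-high against 1836 and 1618 in reporter-low cells (0.58, SE 0.08, edgeR adjusted p = 0.06). Trem2, a lipid-sensing receptor, stood at 213 and 275 against 182 and 211, and Ctsb, a cathepsin, at 1827 and 2043 against 1606 and 1940. Mfge8, which bridges apoptotic cells to phagocytes, was scarce at day 14 with 25.3 and 24.5 and stood at 560 and 344 at day 28. Gpnmb, a lysosomal membrane glycoprotein, ran the other way at 246 and 404 against 375 and 591 (-0.56, SE 0.08, edgeR adjusted p = 0.08). After removal of predicted doublets, 8 of 29 scar-associated genes rose and 2, Gpnmb and Cd36, fell, beside 1.63% and 1.97% of all genes.

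Apoe and Mmp12 had their gap between the sides at day 14. Apoe, the lipid carrier of recruited macrophages, stood at 2471 in reporter-high and 653 in reporter-low cells at day 14 and at 887 and 876 at day 28. Mmp12, the macrophage elastase, stood at 302 and 94.5 at day 14 and at 298 and 246 at day 28. Neither passed (log2 fold changes 1.00, SE 0.43, and 1.00, SE 0.31, with edgeR adjusted p of 0.47 and 0.32). Reporter-high cells held less Apoe at day 28 than at day 14, and reporter-low cells held more Mmp12.

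Further genes that rose had no list in common. Ifi27l2a, an interferon-induced mitochondrial protein, stood at 547 and 171 CPM in reporter-high against 264 and 79.2 in reporter-low cells and rose 2.15-fold (edgeR adjusted p = 0.0270). Its level moved more between the days than between the sides, so reporter-high cells at day 28 lay below reporter-low cells at day 14. Ptgs1, the constitutive cyclooxygenase, stood at 103 and 101 against 58.4 and 55.1 and rose 1.83-fold (edgeR adjusted p = 0.0393). Cmtm7, a MARVEL-domain membrane protein, stood at 107 and 63.2 against 55.7 and 38.7 and rose 1.81-fold (edgeR adjusted p = 0.0440). Among those chosen after their values were seen were Prkcb, protein kinase C beta, at 49.0 and 47.3 against 8.11 and 13.6 (4.60-fold), Hp, haptoglobin, at 44.6 and 75.5 against 15.6 and 24.4 (3.03-fold), and Sdc4, Atp2b4, Hnmt, Arhgap15, Sema4d, Endod1 and Baiap2, which completed the 16.

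Genes outside metabolism and surface identity fell as well. Ccnd2, the D-type cyclin of the G1 phase, stood at 113 and 173 CPM in reporter-high against 423 and 451 in reporter-low cells and fell by 1.62 on the log2 scale (SE 0.15, edgeR adjusted p = 0.0346). It was the only one of 29 Notch and Wnt pathway genes to pass. Kat6b, a histone acetyltransferase, stood at 34.5 and 34.0 against 94.2 and 73.9, and Mcoln3, an endolysosomal cation channel, at 15.8 and 24.6 against 50.8 and 54.7, and they fell by 1.28 and 1.40. Ms4a8a, of the family that also holds the Cre driver, stood at 131 and 193 against 228 and 365 and fell by 0.84 (SE 0.08, edgeR adjusted p = 0.0397). Ms4a3 itself stood at 0.148 and 0.261 in reporter-high cells and was not seen in reporter-low cells of days 14 and 28, too low to be tested.

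A further 17 genes that fell, chosen after their values were seen, were mostly of low level. Htr2c, a serotonin receptor, stood at 8.29 and 6.01 CPM in reporter-high against 50.3 and 36.6 in reporter-low cells and fell by 2.58 on the log2 scale (SE 0.13, edgeR adjusted p = 0.0113). Wwtr1, the Hippo pathway coactivator TAZ, stood at 17.8 and 10.5 against 59.4 and 47.5 and fell by 1.89, and Sema3e, a secreted semaphorin, at 6.66 and 9.93 against 30.9 and 38.0 and fell by 2.06. Cdkn2a, the locus of the cell cycle inhibitors p16 and ARF, stood at 1.18 and 1.57 against 8.05 and 10.8 and fell by 2.74, from only 6 UMIs in reporter-high cells of day 28. Adrb1, the beta-1 adrenergic receptor, stood at 12.9 and 15.7 against 36.6 and 36.8 and fell by 1.36. The sides of these genes did not overlap, as for 17% of all genes tested with reporter-high cells below, which follows in part from their choice. Frmd4a and Phlda1 were the most abundant of the 17, and Phlda1 stood at 92.4 and 41.0 against 178 and 71.8, so that its reporter-low level at day 28 lay below its reporter-high level at day 14. The others were Adgrl3, Fam122b, Fam89a, Frk, Inadl, March4, Tc2n, Tcaf1, Xlr and 9530059O14Rik, with log2 fold changes from -2.50 for Frk to -1.01 for Fam122b.

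Rbpj and Ctnnb1, the effectors of Notch and Wnt signalling that the study deleted in other mice, did not pass. Rbpj stood at 63.8 and 40.0 CPM in reporter-high against 50.6 and 37.7 in reporter-low cells (0.25, SE 0.10, edgeR adjusted p = 0.44), and Ctnnb1 at 394 and 445 against 501 and 497 (-0.23, SE 0.09, edgeR adjusted p = 0.43). Cd44, a hyaluronan receptor and Wnt target, stood at 1862 and 2822 against 2436 and 2859. None of 31 macrophage transcription factors passed, and their median log2 fold change was -0.01. Cebpb and Runx1, factors of myeloid cells, belonged to these.

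Among genes of monocytes and newly recruited macrophages, none of 28 tested passed. The median log2 ratio was 1.08 at day 14 and 0.10 at day 28, and 13 members were higher and 1 lower in both libraries (46.4% and 3.57%, beside 23.7% and 35.8% of all genes). Ccr2, the receptor that brings monocytes out of the blood and marrow, stood at 36.6 in reporter-high and 9.43 in reporter-low cells at day 14 and at 4.96 and 7.80 at day 28. Cx3cr1, the fractalkine receptor, stood at 13.2 and 5.54 at day 14 and at 1.83 and 2.96 at day 28. Ly6c2 was close to absent on both sides at these times, with 0 to 0.958, and Itgam, the CD11b chain, was scarce at 7.55 and 6.01 against 4.42 and 9.26. Lyz2, lysozyme, stood at 22728 and 20940 against 20694 and 20483. S100a4, a calcium-binding protein chosen after its values were seen, was the member with the largest fitted change, at 474 and 140 against 61.2 and 65.8 (2.07, SE 0.43, edgeR adjusted p = 0.15). Without predicted doublets, 7 of the 28 rose, beside 1.63% of all genes.

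Complement and interstitial macrophage genes had a wide gap between the days. None of 16 passed, and their median log2 ratio was 1.22 at day 14 and -0.06 at day 28. C1qa, a chain of the complement C1q complex, stood at 367 in reporter-high and 59.2 in reporter-low cells at day 14 and at 107 and 87.6 at day 28. C1qb stood at 450 and 67.0, and at 125 and 93.1. From day 14 to day 28 the levels were lower in reporter-high and somewhat higher in reporter-low cells.

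MHC class II genes present peptides to CD4 T cells. None of 13 passed, with a median log2 fold change of 0.48, and 7 were higher and 2 lower in reporter-high cells of both libraries (53.8% and 15.4%, beside 23.7% and 35.8% of all genes). H2-Aa stood at 656 and 704 CPM in reporter-high against 179 and 385 in reporter-low cells (1.39, SE 0.23, edgeR adjusted p = 0.10). Cd74, the invariant chain, stood at 1710 and 1899 against 434 and 1002 (1.47, SE 0.24, edgeR adjusted p = 0.10). The sides of H2-Aa and Cd74 did not overlap, as for 12.1% of all genes tested with reporter-high cells above. The level of reporter-low cells was higher at day 28. After removal of predicted doublets, 7 of the 13 rose and 1 fell, beside 1.63% and 1.97% of all genes, and H2-Aa and Cd74 passed with log2 fold changes of 1.72 and 1.74.

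Interferon-induced genes passed the test in both directions, with 1 gene each way. Of 28 tested, Ifi27l2a rose and Cxcl10 fell, beside 0.143% and 0.367% of all genes. The median log2 fold change of the list was 0.37. In both libraries 12 members were higher and 6 lower (42.9% and 21.4%, beside 23.7% and 35.8% of all genes). Cxcl10, a chemokine for activated T cells, stood at 2.07 and 0.261 CPM in reporter-high against 17.02 and 1.28 in reporter-low cells (-2.96, SE 0.32, edgeR adjusted p = 0.0435), from only 1 UMI in reporter-high cells of day 28. Among 29 chemokines and cytokines, Ccl7, a monocyte attractant, fell as well, at 10.8 and 1.57 against 46.3 and 5.56 (-2.05, SE 0.17, edgeR adjusted p = 0.0335). The other members of the list did not pass, including Ccl6 at 6224 and 9946 against 7314 and 10451 and Cxcl2 at 977 and 177 against 1113 and 221. Without predicted doublets, 8 of 28 chemokines and cytokines fell and 2 rose, beside 1.97% and 1.63% of all genes.

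Immediate early genes, which rise within minutes of handling or signalling, were lower in reporter-high cells of both libraries for 17 of 19 tested (89.5%, beside 35.8% of all genes). None passed, and the median was -0.25. Fos stood at 1352 and 805 CPM in reporter-high against 1401 and 1142 in reporter-low cells, and Junb at 950 and 496 against 1136 and 569. For Fos and Junb the days differed more than the sides.

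Replication and mitosis genes did not differ in 1 direction. None of 30 passed, and their median log2 ratio was 0.57 at day 14 and -0.25 at day 28. Cells with a UMI of Mki67 or Top2a, which are made in dividing cells, were 42.5% of reporter-high and 30.1% of reporter-low cells at day 14 and 17.2% and 22.4% at day 28. Reporter-high cells were the deeper side at both times, which raises such shares. With these cells left out, 12 of 33 alveolar identity genes fell and 1 rose, and 10 of 30 scar-associated genes rose and 1 fell, in a fit that called 2% of all genes higher and 2.3% lower. Lysosome genes were level, with none of 34 past the test and medians of 0.03 at both times, and Ctsd, a lysosomal protease, stood at 7383 and 9892 against 8850 and 10525.

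**Figure D4:**
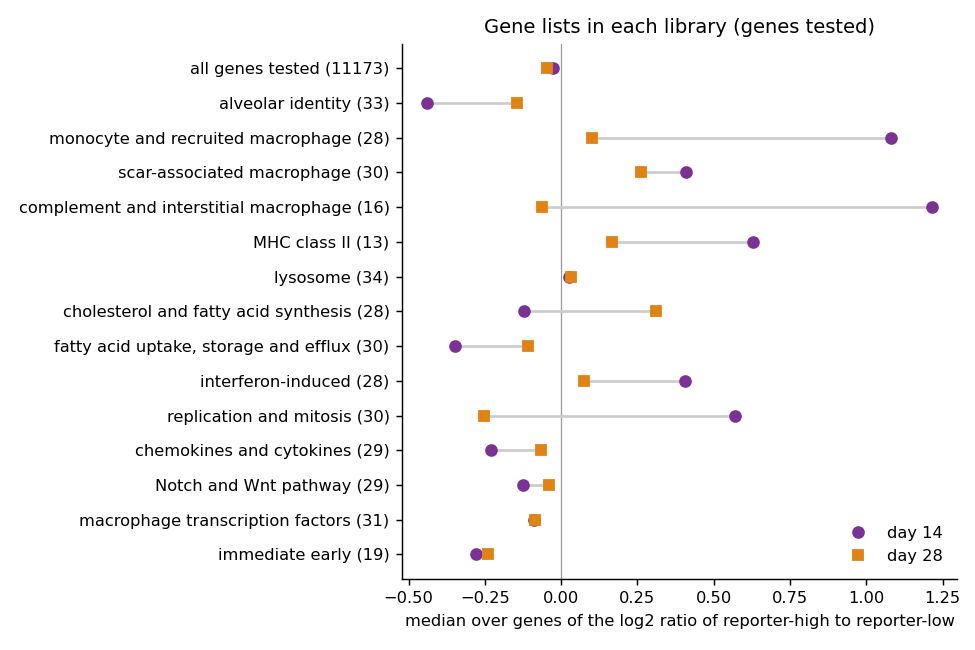
Median over the tested genes of each list (number in brackets) of the log2 ratio of reporter-high to reporter-low cells, with day 14 as circles and day 28 as squares. The complement, monocyte and MHC class II lists stand at 1.22, 1.08 and 0.63 at day 14 and at -0.06, 0.10 and 0.17 at day 28, while the alveolar list is below 0 on both days (-0.44 and -0.15).

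Reporter-middle cells, which the test of the sides did not use, lay between the sides for most of the genes past the test. At day 14 they were between reporter-high and reporter-low cells for 16 of the 16 genes that rose and 39 of the 41 that fell, and at day 28 for 15 and 38. Marco stood at 84.2, 227 and 349 CPM in reporter-high, reporter-middle and reporter-low cells at day 14 and at 77.6, 148 and 288 at day 28. Spp1 stood at 13801, 7985 and 6066, and at 15380, 10565 and 7492. Scgb1a1 was an exception at day 28, with 4023 in reporter-middle cells against 200 and 553 on the sides. The reporter-high and reporter-low values are those that chose these genes. Reporter-middle cells were cut at an RFP level between the sides, and no such count was made over all genes tested. A place between the sides can follow from this choice of genes and cells, so no further reading is drawn from it.

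Car4-negative macrophages past the same reporter cut lay beyond the reporter-high Car4 macrophages for most of these genes. At day 14 they did so for 12 of the 16 genes that rose and 34 of the 41 that fell, and at day 28 for 11 and 33. Their Marco stood at 5.53 and 2.88 at days 14 and 28, their Cidec at 3.79 and 9.65 and their Siglecf at 16.1 and 30.3. Their Spp1 stood at 22064 and 21340 and their Ecm1 at 223 and 236. Car4-negative macrophages were chosen for C1qa and for no Car4 UMI, so low levels of alveolar genes can follow from that choice. The genes were chosen by the gap between the sides, and no such count was made over all genes tested. Within these limits, reporter-high Car4 macrophages held a level between reporter-low Car4 macrophages and labelled Car4-negative macrophages for Marco, Cidec, Siglecf, Spp1 and Ecm1. Arg1 and Ptgs1 did not follow this order: Arg1 was lower in Car4-negative macrophages (56.5 and 28.6) than in reporter-high cells, and so was Ptgs1 (56.8 and 51.9).

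**Figure D5:**
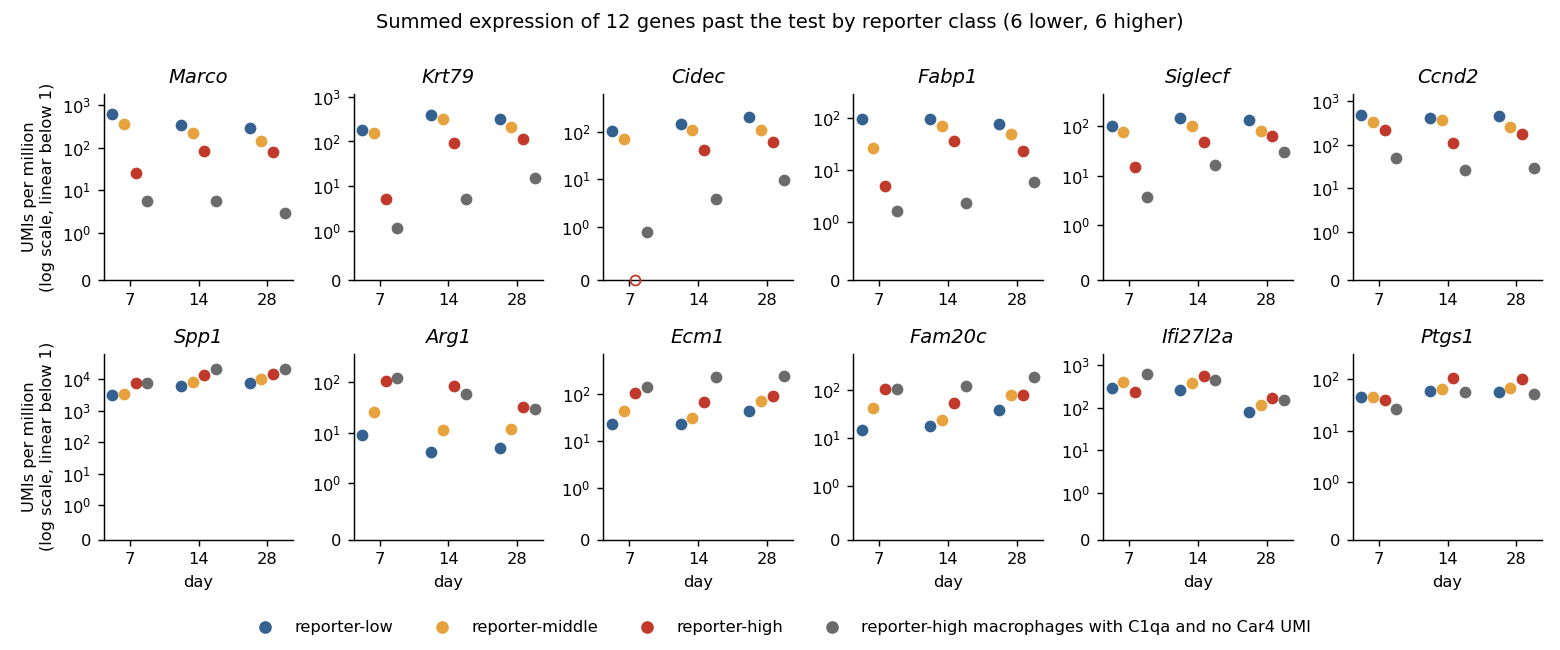
CPM (y axis, log scale, linear below 1) of 12 genes past the test, summed over the cells of 4 classes at days 7, 14 and 28 (x axis), with an open circle for no UMI. The 6 genes of the upper row step down from reporter-low over reporter-middle and reporter-high to Car4-negative macrophages at days 14 and 28, and Arg1 and Ptgs1 in the lower row are highest in reporter-high cells at those days.

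The 11 reporter-high cells of day 7 took no part in the test and went the same way for 12 of the 16 genes that rose and 39 of the 41 that fell. No such count was made over all genes tested. Some of the genes that fell, such as Adgrl3 and Inadl, had no UMI in these cells, so the count is not read as a replication. Marco stood at 25.1 in them and at 609 in the 1178 reporter-low cells, Krt79 at 5.01 and 181, Siglecf at 15.03 and 99.6, Arg1 at 105 and 8.89 and Spp1 at 7822 and 3156. Cidec was not seen in the 11 cells, against 101 in reporter-low cells. Ccl7, which fell at days 14 and 28, stood the other way at 241 and 121. Of the genes that rose, Ifi27l2a (231 and 292), Ptgs1 (40.1 and 45.7), Hp and Endod1 were also the other way at day 7, and so was 9530059O14Rik of those that fell. Among the 1524 genes of higher level, 25 were 2-fold higher and 80 2-fold lower in these cells (1.64% and 5.25%). Apoe stood at 5222 and 685, C1qa at 446 and 139, Gpnmb at 1659 and 408 and Mmp12 at 752 and 68.1. Gpnmb was thus higher in reporter-high cells at day 7 and lower at days 14 and 28. Of these 11 cells 3 were predicted doublets, and 11 cells are too few for more than a description.

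Transcripts of other cells were looked for on both sides, since a droplet can hold free RNA or a second cell. Scgb1a1, the secretoglobin of club cells, fell by 1.498 on the log2 scale (SE 0.09, edgeR adjusted p = 0.0121), from 933 and 553 CPM in reporter-low to 313 and 200 in reporter-high cells at days 14 and 28. The 12 epithelial markers summed to 486 and 279 in reporter-high against 1105 and 668 in reporter-low cells, with 0 and 1 of them at 0 UMIs in reporter-high cells. Scgb1a1 made up most of each sum. Ager, a marker of type 1 alveolar cells in the same list, went the other way at day 14 with 47.1 in reporter-high against 4.82 in reporter-low cells, stood at 1.31 and 2.83 at day 28 and did not pass (2.23, SE 0.78, edgeR adjusted p = 0.36). It passed as higher without predicted doublets (2.58, edgeR adjusted p = 0.0246) and was at -1.17 without cycling cells (edgeR adjusted p = 0.20). Without predicted doublets the Scgb1a1 difference was -0.56 and did not pass (edgeR adjusted p = 0.0739), and with cycling cells left out it was -0.07. Hba-a2 and Hbb-bt, globins of red cells, fell by 3.24 and 3.02. Hba-a2 stood at 11.3 and 1.31 against 112 and 7.75, and with doublets left out its difference was -0.75 (edgeR adjusted p = 0.404). These 3 genes were the only ones of the 57 that lost significance when predicted doublets were left out.

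Markers of blood cells gave less. The 12 T and NK cell markers summed to 169 and 94.6 CPM in reporter-high against 234 and 203 in reporter-low cells, with 0 and 4 of them at 0 UMIs on the reporter-high side. Cd2 made up most of each sum and fell by 1.24 on the log2 scale (SE 0.09, edgeR adjusted p = 0.0234), at 90.2 and 67.7 against 206 and 171. Gzma, a granzyme in the same list, stood at 26.9 in reporter-high against 6.27 in reporter-low cells at day 14, was at 0 UMIs against 1.14 at day 28 and did not pass (1.56, SE 0.66, edgeR adjusted p = 0.46). It passed as higher without cycling cells (3.06, edgeR adjusted p = 0.00079) and with Siglecf required (2.17, edgeR adjusted p = 0.0220). Neutrophil markers summed to 191 and 172 against 203 and 243, B and plasma cell markers to 10.7 and 8.36 against 8.44 and 10.3, and dendritic cell markers to 35.2 and 45.7 against 38.5 and 45.4. None of the neutrophil, B cell or dendritic cell markers passed, and Ly6g of neutrophils was at 0 in reporter-high cells. The part of these transcripts in the results was not tested beyond leaving out predicted doublets, after which 54 of the 57 genes still passed.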

How the data were processed

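Cells of 5 lung libraries were captured as 3' single-cell libraries. The authors made the deposited counts, whole UMIs per gene and barcode, with Cell Ranger 6.0.0 on mm10 with an added RFP feature, per the labels and the study's methods. Barcodes outside 300 to 8000 detected genes or outside 800 to 60000 UMIs were dropped, as were those at 15% mitochondrial UMIs or more (Python 3.11.15). Doublets were predicted with Scrublet in scanpy 1.11.5, at a rate of 0.8% per 1000 barcodes, and left out only as an alternative. The day 7 library, with no barcode under 4624 UMIs, may have been filtered differently before deposit. UMIs of reporter-high and reporter-low Car4 macrophages were summed per library. These counts were filtered with filterByExpr, scaled by TMM and tested across all genes by the edgeR 4.0.16 quasi-likelihood test in R 4.3.3, with the library as a block, Benjamini-Hochberg adjustment and a threshold of 0.05. The procedure was tested on simulated data. Adjusted p-values rest on 2 libraries of different time points. The fit had 1 residual degree of freedom and 4.31 prior ones, so the spread of each gene was borrowed largely from the other genes. Spread between replicates of 1 time point was not measured. DESeq2 1.42.0 served as an alternative. Reporter, cell, depth and doublet settings were the others. The day 7 library added, the Siglecf gate and the middle against low cells were chosen after seeing the data.

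The members and lists were chosen with earlier results of these data known. Genes were named by 3 rules, which were the 12 largest fold changes in each direction among genes past the threshold at 50 CPM or more, the leading members of each list, and a fixed set of lineage and study genes. Any other gene was chosen after its values were seen and is said to be so, apart from a few list members given with their levels. Some genes that the rules name are not reported here. Gene coordinates are from GENCODE release M21 (GRCm38), and promoter sequence is from RefSeq (GRCm38.p6).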

Additional observations from a re-analysis of the deposited data

Results flagged for a closer look

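Of 88 named genes, 9 had log2 ratios of reporter-high to reporter-low cells that went opposite ways at day 14 and day 28. Each ratio was beyond the counting error of its library. These 9 had UMIs on both sides of both libraries, and 1 more gene, without UMIs on a side, was left out. The difference between the days was not tested, since each time point is 1 library. Among all 11173 genes tested, 214 (1.92%) went opposite ways in this manner, counted without the condition of UMIs on both sides. Named genes were chosen in part for a high level, at which counting error is smaller, so the 2 counts are not compared.

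Lipid genes made up 4 of the 9, and all 4 were lower at day 14 and higher at day 28. Fabp4, a fatty acid carrier, stood at -0.73 and 0.57. The sterol synthesis enzymes Cyp51 (-0.17 and 0.59), Idi1 (-0.22 and 0.55) and Hmgcs1 (-0.17 and 0.29) went the same way. Cebpb, a transcription factor of myeloid cells, stood at -0.09 and 0.05.

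The other 4 were higher at day 14 and lower at day 28. H2afz, a histone variant, stood at 0.30 and -0.12 and Tuba1b, a tubulin, at 0.19 and -0.10. The share of cells with Mki67 or Top2a UMIs, 42.5% against 30.1% at day 14 and 17.2% against 22.4% at day 28, moved with these 2 genes, and its part in them was not tested. Ms4a6c, a macrophage gene of the Ms4a family, stood at 0.33 and -0.17, and S100a8, a neutrophil alarmin, at 0.18 and -0.39.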

How the results depend on the processing

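Reporter-high and reporter-low cells come from the same library and all groups have only replicate number 1, so the library is the replicate block. Without the replicate block, 0 genes rose and 0 fell in edgeR, 467 had an unadjusted p under 0.05 and 0 list members passed. The counts of genes that rose and fell, 16 and 41 as reported, were 58 and 91 with DESeq2, 97 and 156 without TMM factors, 338 and 440 without the filter on low counts, 86 and 86 with reporter-low cells at 0 RFP UMIs only, 115 and 177 with reporter-high cells from 2000 CPM, 6 and 10 with cells thinned to 2000 UMIs, 180 and 218 without predicted doublets, 210 and 242 without cycling cells, 149 and 179 with 4 Car4 UMIs, 178 and 168 with Siglecf required, 102 and 138 with day 7 added, and 213 and 129 for reporter-middle against reporter-low cells. List members past the threshold, 19 as reported, were then 39, 52, 127, 48, 59, 14, 76, 82, 71, 69, 48 and 87 in that order. A minimum of 5000 UMIs and a mitochondrial limit of 10% gave 21 and 49, and 19 and 43. Of the 57 genes, 56 passed with DESeq2, 54 without doublets, 56 without cycling cells and 12 of 48 after thinning. The prior degrees of freedom moved with these counts, from 2.81 without the block over 4.31 as reported to 415 without the filter, and the cause was not tested. Scgb1a1 and Gzma reversed in reporter-middle cells (0.78 and -2.10) and Hbb-bt with 4 Car4 UMIs (0.11). Leaving out either library leaves 1 library and no residual degree of freedom, so no counts of calls were made, and all 57 genes kept their direction in each library alone. The reporter-high share with the 2000 CPM cut was 0.0502% in sham and 0.400%, 0.160%, 11.9% and 3.45% at days 3, 7, 14 and 28. With RFP at 2 or more of 2000 thinned UMIs it was 3.29%, 3.64%, 3.28%, 24.8% and 15.2% in the same order. With 2 libraries, depth limits genes of a few UMIs on the reporter-high side, such as Cxcl10 and Cdkn2a.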
